A study of Homo sapiens with 4 samples.

Results

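The genes described here are the cyclins, the cyclin-dependent kinases (CDKs), the CDK inhibitors and the CDC25 phosphatases, taken by symbol from a table of read counts for HEK293T cells with and without HELZ. The symbol patterns found 56 genes among the 27011 genes of the table, and 50 of these 56 were among the 10978 genes of the authors' comparison, which form the tested set. The authors selected these genes at an FPKM above 2, and 48 of the 50 were above it in every library. CDKN1C exceeded it in HELZ-null replicate 2 alone and CDK3 in WT replicate 2 alone, so each is in the tested set through the group where it is higher. RNA-Seq was done on 2 biological replicates of WT HEK293T cells and 2 of HELZ-null HEK293T cells, untreated and harvested a day after plating. The HEK293T line derives from human embryonic kidney and carries the large T antigen of SV40. The HELZ-null line was made from it with CRISPR/Cas9 and a guide RNA to a coding exon of HELZ, which left a small deletion that shifts the reading frame. Whether the line is a single clone is not given in the sources used here, and differences between the lines that arose apart from the edit cannot be told apart from the edit.

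Library totals ranged from 41745401 to 70464140 counts, and the tested genes held 97.8% of each. Levels are given as CPM (counts scaled to a common library size after TMM, which compares libraries) or as FPKM (the same count scaled also by gene length, without TMM, which compares genes). HELZ itself (chr17:65066560-65242105, minus strand, hg19 as for all gene positions here) had 99.8 and 104 CPM in the WT libraries and 37.0 and 37.9 CPM in the HELZ-null libraries. Its log2 fold change (log2FC, HELZ-null over WT) was -1.44 (SE 0.042), with an adjusted p of 2.13e-27 in edgeR's quasi-likelihood test, and the edited gene thus had the lower level in both HELZ-null libraries. Of 7 genes known for HEK293T cells, 6 had over 1 FPKM in every library, and the exception, LHX1, had 0.757 FPKM in its lowest library. The summed level of these 7 genes was 599 and 598 FPKM in WT and 623 and 614 FPKM in HELZ-null libraries. Of 8 markers of blood, liver, vessel and fibroblast cells, 5 were under 0.1 FPKM in every library, and HBB was at 0. These 8 markers summed to 3.43 and 3.60 FPKM in WT and 4.54 and 4.06 FPKM in HELZ-null libraries. Both sums were higher in HELZ-null libraries, and their part in the results was not tested.

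Cyclins are regulatory subunits that switch on CDKs, and many of them are made and destroyed at fixed points of the cell cycle. D-type cyclins with CDK4 and CDK6 phosphorylate RB, which releases E2F factors, and E- and A-type cyclins with CDK2 then drive DNA replication. Cyclin B with CDK1 drives mitosis after CDC25 phosphatases have removed inhibitory phosphates. Inhibitors of the INK4 family (CDKN2 genes) bind CDK4 and CDK6, and those of the CIP/KIP family (CDKN1 genes) bind cyclin-CDK complexes more broadly. A further group of cyclins and CDKs acts on RNA polymerase II and on RNA processing instead. In HEK293T cells, T antigen binds RB, so the D-type cyclin branch acts on an RB protein that is already restrained.

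Of the 50 tested genes, 16 (32%) were called at an adjusted p under 0.005, against 29.4% of all 10978 tested genes. Of the 50, 7 rose in HELZ-null cells (13.9% of all tested genes did) and 9 fell (15.5% of all tested genes did). The shares of these genes called in each direction were thus near those of the genes tested, which the authors had selected by FPKM. The median log2FC of the 50 was -0.0005, against -0.0009 over all tested genes, and the median absolute log2FC was 0.12, against 0.11. The CPM of both WT libraries lay on one side of both HELZ-null libraries for 37 of the 50 genes, 18 higher and 19 lower in HELZ-null cells, and 70.6% of all tested genes separated in this way. Changes were small. CDKN1C was the only called gene that changed more than 1.5-fold, and it passed the FPKM selection only through the group where it is higher. Of the 34 genes not called, 28 had a 95% interval of the log2FC that lay within a 1.2-fold change in either direction. Of the same 34 genes, 10 had an adjusted p under 0.05, 4 of them higher and 6 lower in HELZ-null cells, and these 10 are not counted as changed. CDK3, which passed the FPKM selection through the WT group alone, is among the 6. The plot of log2FC by class shows the spread within each class.

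**Figure D1:**
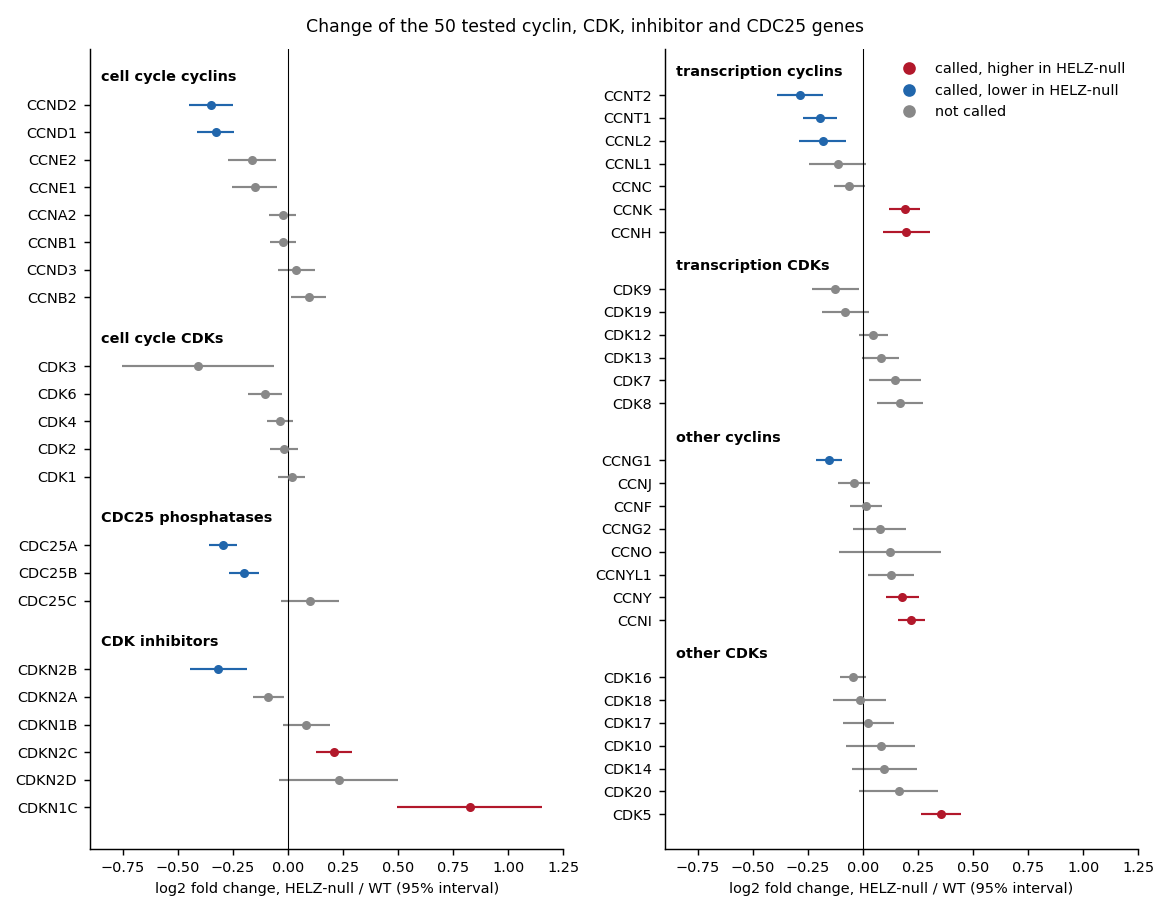
Log2 fold change (HELZ-null over WT, 2 libraries each) of the 50 tested genes by class, with points for the estimate, bars for the 95% interval from edgeR's quasi-likelihood fit, and colours for genes called at an adjusted p under 0.005. Called genes of both directions occur among the CDK inhibitors, the transcription cyclins and the other cyclins, and no cell cycle CDK or transcription CDK was called.

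Genes of the cell cycle made up 22 of the tested genes, of which 2 rose and 5 fell (31.8% called, near the 29.4% of all tested genes), with a median log2FC of -0.03. CDKN1C, 1 of the 2 that rose, passed the FPKM selection through the HELZ-null group alone. Of the 8 tested cell cycle cyclins, 2 fell and 0 rose, and both that fell were D-type cyclins, which couple growth signals to the start of the cycle. CCND1 (cyclin D1, chr11:69455924-69469242, plus strand) had 70.3 and 69.6 CPM in WT and 55.6 and 55.8 CPM in HELZ-null libraries. The mean fell by 20.4%, with a log2FC of -0.33 (SE 0.042, adjusted p = 2.69e-08), and the difference between the groups was far larger than that between replicates. CCND2 (cyclin D2, chr12:4378937-4414519, plus strand) had 48.8 and 49.2 CPM in WT and 39.7 and 37.4 CPM in HELZ-null libraries. Its log2FC of -0.35 (SE 0.050, adjusted p = 2.36e-07) is close to that of CCND1. CCND3 (cyclin D3), the family's remaining member, had 69.9 and 75.5 CPM in WT and 72.7 and 75.8 CPM in HELZ-null libraries, and these ranges overlap. Its log2FC was 0.04, with a 95% interval from -0.05 to 0.12 that does not reach the values of CCND1 and CCND2, although a difference between these genes was not tested.

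Per length, the D-type cyclins summed to 44.4 and 46.2 FPKM in WT and to 41.7 and 42.3 FPKM in HELZ-null libraries. CCND3 was the most abundant of them in every library, and its share of the sum was 48.1% and 50.1% in WT and 54.7% and 56.1% in HELZ-null libraries. The share of CCND1 was 35.7% and 34.0% in WT and 30.8% and 30.5% in HELZ-null libraries. Set against CDK4, its main kinase partner, CCND1 had an FPKM ratio of 0.104 and 0.107 in WT and of 0.086 and 0.0864 in HELZ-null libraries. CDK4 (chr12:58141510-58149796, minus strand), the most abundant of all 56 genes per length, had 152 and 147 FPKM in WT and 149 and 149 FPKM in HELZ-null libraries. It was not called, with a log2FC of -0.04 and a 95% interval from -0.10 to 0.02. CDK6, the other kinase of this step, made up 4.36% and 4.79% of the CDK4 and CDK6 sum in WT and 4.39% and 4.33% in HELZ-null libraries. Since whole cultures were sequenced, fewer cells in a phase of the cycle and less RNA per cell cannot be told apart in these values.

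The cyclins and kinases of the later phases were not called. Of the 5 cell cycle CDKs, 0 were called in the main edgeR fit or by DESeq2, against 29.4% of all tested genes in edgeR. At an unadjusted p under 0.05, 2 of the 5 were lower, as were 25.8% of all tested genes. CDK3 is among these 2, and it passed the FPKM selection only through the WT group, where it is higher. The E-type cyclins CCNE1 and CCNE2, which act with CDK2 at the entry into S phase, had log2FC values of -0.15 and -0.16 with adjusted p-values of 0.0129 and 0.0133. CCNE1 had 42.8 and 42.9 CPM in WT and 39.0 and 38.2 CPM in HELZ-null libraries, so its groups were apart although the call was not made. CCNA2 (cyclin A2), which acts in S and G2 phase, had 218 and 216 CPM in WT and 212 and 214 CPM in HELZ-null libraries, a log2FC of -0.03 (95% interval -0.09 to 0.03). CCNB1 (cyclin B1, chr5:68462962-68474072, plus strand), which drives entry into mitosis, had 246 and 241 CPM in WT and 239 and 241 CPM in HELZ-null libraries. Its log2FC was -0.02 (95% interval -0.08 to 0.04). CCNB2 (cyclin B2) had a log2FC of 0.09 and an adjusted p of 0.0483. CDK1, the mitotic kinase, had 222 and 217 CPM in WT and 222 and 221 CPM in HELZ-null libraries, and the ratio of CCNB1 to CDK1 in FPKM was between 1.65 and 1.71 in all libraries. CDK2 had a log2FC of -0.02 (95% interval -0.08 to 0.05). CDK3, at 3.04 and 3.56 CPM in WT and 2.35 and 2.54 CPM in HELZ-null libraries, had the widest interval of the 5 kinases (-0.75 to -0.06), was not called, and shares its locus with the read-through gene TEN1-CDK3.

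**Figure D2:**
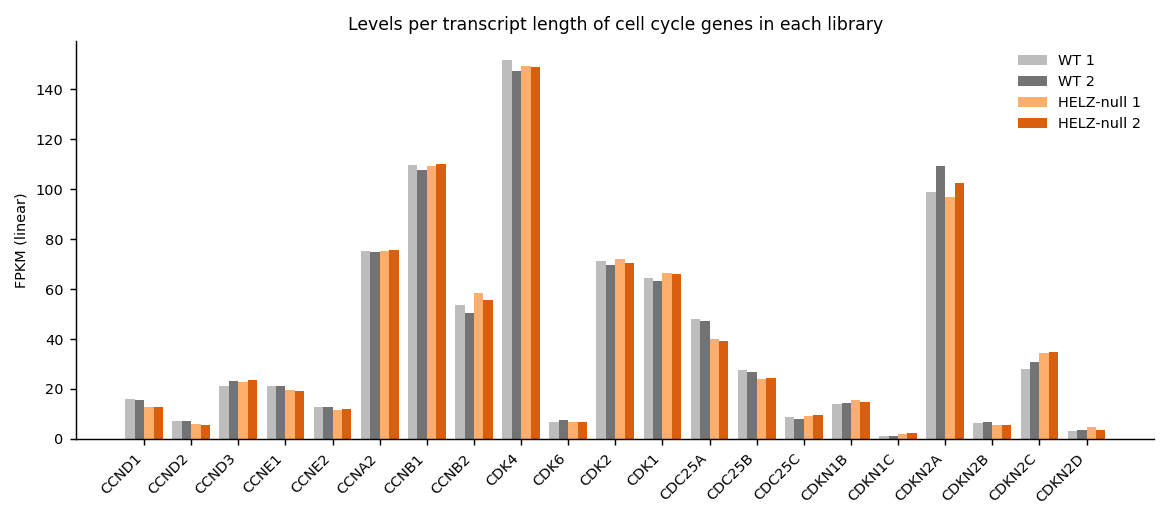
FPKM (linear axis from 0) of the tested cell cycle cyclins, of 4 cell cycle CDKs, of the CDC25 phosphatases and of the CDK inhibitors, with 1 bar for each of the 2 WT and 2 HELZ-null libraries. CDK4, CCNB1 and CDKN2A are high and similar in all libraries, while the bars of CCND1, CCND2, CDC25A and CDC25B are lower in both HELZ-null libraries.

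The stretches upstream of 4 of these genes are printed to set the mitotic cyclins, which were not called, beside CDC25A, which fell. They hold the 150 bases before the start of the RefSeq transcript (GRCh38.p14), read 5′ to 3′ along the gene. Capitals mark CCAAT boxes, the motif TTTGAA (the core of the cell cycle homology region of mitotic genes) and the E2F motifs TTTGGCGC or TTTCCCGC, each searched on both strands. None of the capital runs printed overlap each other.
CCNA2, chr4:121823884-121824033 (minus strand): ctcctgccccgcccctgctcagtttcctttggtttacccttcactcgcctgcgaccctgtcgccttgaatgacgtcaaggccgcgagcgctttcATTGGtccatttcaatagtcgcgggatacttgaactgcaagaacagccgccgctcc
CCNB1, chr5:69167000-69167149 (plus strand): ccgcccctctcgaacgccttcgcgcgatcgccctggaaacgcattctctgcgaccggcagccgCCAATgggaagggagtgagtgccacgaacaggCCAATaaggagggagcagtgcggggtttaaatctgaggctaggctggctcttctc
CCNB2, chr15:59104996-59105145 (plus strand): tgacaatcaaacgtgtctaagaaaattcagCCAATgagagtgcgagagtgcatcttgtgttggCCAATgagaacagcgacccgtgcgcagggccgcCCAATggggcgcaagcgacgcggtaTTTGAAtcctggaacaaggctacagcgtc
CDC25A, chr3:48188418-48188567 (minus strand): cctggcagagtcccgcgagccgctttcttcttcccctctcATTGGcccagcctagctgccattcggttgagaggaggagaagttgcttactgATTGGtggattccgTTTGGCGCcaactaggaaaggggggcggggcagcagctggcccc
There was 1 CCAAT box upstream of CCNA2, with 2 upstream of CCNB1, 3 upstream of CCNB2 and 2 upstream of CDC25A. CCNB2 also held 1 match to TTTGAA, and CDC25A held 1 match to TTTGGCGC. Other spellings of these elements were not searched, so a stretch without a match may still hold such an element. Among the 56 genes, 50 had an entry, and 19 of these 50 held a CCAAT box in such a stretch. Counting every start listed, 30.4% of the 79 stretches of these genes held it, against 23.5% of all 35116 stretches of this length. TTTGAA was in 5.06% of the 79 and in 7.33% of all stretches, and an E2F motif in 2.53% and 1.22%. A match of letters is a description and was not tested as a binding site.

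Of the 3 CDC25 phosphatases, which activate CDKs by dephosphorylation, 2 fell, and 15.5% of all tested genes fell. CDC25A (chr3:48198636-48229907 on hg19, minus strand), which acts at the entry into S phase and in mitosis, had 184 and 181 CPM in WT and 150 and 147 CPM in HELZ-null libraries. The groups lay far apart, with a log2FC of -0.30 (SE 0.032, adjusted p = 3.41e-10). CDC25A lies in a stretch of chromosome 3 where 116 of the 125 tested genes within 5 Mb also had a negative log2FC, with a median of -0.23. Taking that median off leaves -0.06 for CDC25A, and the part of the location in its decrease was not tested. CDC25B (chr20:3767419-3786768, plus strand), which acts in G2 phase, had 124 and 121 CPM in WT and 106 and 107 CPM in HELZ-null libraries. Its log2FC was -0.20 (SE 0.034, adjusted p = 7.62e-06), and its 52 tested neighbours had a median of 0.04. CDC25C, which acts on CDK1 at mitosis, had 23.5 and 21.5 CPM in WT and 23.8 and 24.5 CPM in HELZ-null libraries and was not called (log2FC 0.10, 95% interval -0.03 to 0.23).

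The 6 tested CDK inhibitors moved in both directions, with 2 rising, 1 falling and a median log2FC of 0.15, against 13.9% rising and 15.5% falling among all tested genes. CDKN1C is 1 of the 2 that rose, and the FPKM selection admitted it through the HELZ-null group. CDKN1C (p57, chr11:2904443-2907005, minus strand), an imprinted inhibitor of the CIP/KIP family known for restraining growth in development, rose. It had 2.31 and 2.34 CPM in WT and 3.82 and 4.33 CPM in HELZ-null libraries, from 145 and 96 counts against 158 and 302. Its log2FC was 0.82 (SE 0.16, adjusted p = 6.32e-05), a 1.75-fold higher mean CPM. In the fit on all genes with at least 1 count, which uses no FPKM selection, the log2FC was also 0.82 (SE 0.15, adjusted p = 1.15e-06). The level stayed low, at 1.17 FPKM in WT and 2.09 FPKM in HELZ-null libraries on average, and without HELZ-null replicate 2 the adjusted p was 0.00633, which ends the call. CDKN2C (p18, chr1:51426417-51440306, plus strand), an INK4 inhibitor, had 71.5 and 78.7 CPM in WT and 86.0 and 86.8 CPM in HELZ-null libraries. It rose with a log2FC of 0.21 (SE 0.041, adjusted p = 6.19e-05), and without WT replicate 1 the log2FC was 0.13 and the adjusted p 0.00795, which is again above the threshold.

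CDKN2B (p15, chr9:22002902-22009304, minus strand), an INK4 inhibitor known as a target of TGF-beta signalling, fell. It had 26.1 and 28.4 CPM in WT and 21.7 and 21.9 CPM in HELZ-null libraries, a log2FC of -0.32 (SE 0.065, adjusted p = 0.0001). CDKN2A (p16 and p14ARF), its neighbour on chromosome 9, had 213 and 234 CPM in WT and 203 and 215 CPM in HELZ-null libraries, ranges that overlap, and was not called (log2FC -0.09, adjusted p = 0.0313). CDKN2A made up most of the summed FPKM of the 6 inhibitors, 65.4% and 65.9% in WT and 61.0% and 62.8% in HELZ-null libraries. The share of CDKN2C was 18.4% and 18.5% in WT and 21.6% and 21.2% in HELZ-null libraries, and that of CDKN2B was 4.17% and 4.16% against 3.39% and 3.33%. The sum itself, 152 and 166 FPKM in WT and 159 and 163 FPKM in HELZ-null libraries, overlapped between the groups. CDKN1B (p27) and CDKN2D (p19) were not called, with log2FC values of 0.08 and 0.23.

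Genes of the transcription class made up 13 of the tested genes, of which 2 rose and 3 fell (38.5% called, against 29.4% of all tested genes), with a median log2FC of -0.06. The sign of this median is not settled, since it was 0.02 without WT replicate 1 and 0.01 with a GC correction. All 5 calls were in cyclins, and 0 of the 6 transcription CDKs were called in the main edgeR fit or by DESeq2. At an unadjusted p under 0.05, 2 of these 6 were higher and 1 lower, against 25.1% and 25.8% of all tested genes. In edgeR with scaling by library size alone or with a GC correction, 3 genes of the class were called up, against 2 in the main fit. The T-type cyclins, which form the elongation factor P-TEFb with CDK9, both fell. CCNT1 (chr12:49082241-49110781, minus strand) had 85.3 and 89.9 CPM in WT and 76.5 and 76.1 CPM in HELZ-null libraries, a log2FC of -0.20 (SE 0.039, adjusted p = 6.08e-05). CCNT2 (chr2:135675805-135716912, plus strand) had 52.6 and 48.1 CPM in WT and 43.4 and 39.8 CPM in HELZ-null libraries, a log2FC of -0.29 (SE 0.052, adjusted p = 1.83e-05). Their summed level was 18.6 and 18.6 FPKM in WT and 16.6 and 16.0 FPKM in HELZ-null libraries. CDK9, their kinase, had 40.2 and 38.9 CPM in WT and 37.5 and 35.2 CPM in HELZ-null libraries, and was not called (log2FC -0.13, adjusted p = 0.0483). The FPKM ratio of CCNT1 to CDK9 overlapped between the groups, at 0.741 and 0.807 in WT and 0.712 and 0.755 in HELZ-null libraries.

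CCNK (cyclin K, chr14:99947506-100001381, plus strand), which activates the polymerase II kinases CDK12 and CDK13, rose. It had 107 and 103 CPM in WT and 118 and 121 CPM in HELZ-null libraries, a log2FC of 0.19 (SE 0.035, adjusted p = 2.41e-05). CDK12 (chr17:37617739-37723812, plus strand), the transcription CDK with a mean of 22.9 FPKM in WT, had 202 and 191 CPM in WT and 209 and 198 CPM in HELZ-null libraries. These values overlap, and its log2FC was 0.05 (95% interval -0.02 to 0.11). CCNH (cyclin H, chr5:86614233-86708747, minus strand), part of the CDK-activating kinase with CDK7 and of the general transcription factor TFIIH, had 35.3 and 34.9 CPM in WT and 39.4 and 41.0 CPM in HELZ-null libraries. It rose with a log2FC of 0.20 (SE 0.052, adjusted p = 0.00201), but lost the call in 4 of 13 alternatives that could end it, with an adjusted p of up to 0.0599 without HELZ-null replicate 2. CDK7 and CDK8 had log2FC values of 0.15 and 0.17 and were not called (adjusted p = 0.0378 and 0.00692). CCNL2 (cyclin L2, chr1:1321091-1334715, minus strand), which acts in splicing, had 81.2 and 65.7 CPM in WT and 66.4 and 64.0 CPM in HELZ-null libraries. Its groups overlap, and its call as lower (log2FC -0.18, SE 0.053, adjusted p = 0.00449) rests on WT replicate 1, since without it the log2FC was -0.01 and the adjusted p 0.853. Without WT replicate 2 its log2FC was -0.32.

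Among the remaining genes, whose roles lie mostly outside these classes, 15 were tested, of which 3 rose and 1 fell (26.7% called, against 29.4% of all tested genes). CCNG1 (cyclin G1, chr5:162864575-162873157, plus strand), a known target of p53, was with 107 and 109 FPKM in WT one of the most abundant members. It had 274 and 278 CPM in WT and 252 and 245 CPM in HELZ-null libraries, a log2FC of -0.15 (SE 0.030, adjusted p = 4.62e-05), and without HELZ-null replicate 2 the adjusted p was 0.0106. With a GC correction its log2FC was -0.10, and the call was kept. CCNI (cyclin I, chr4:77968308-77997462, minus strand), an atypical cyclin, rose from 201 and 208 CPM in WT to 239 and 237 CPM in HELZ-null libraries. Its log2FC was 0.22 (SE 0.030, adjusted p = 1.26e-07). CCNY (cyclin Y, chr10:35535953-35861597, plus strand), a membrane-bound partner of CDK14 and CDK16, had 85.3 and 86.3 CPM in WT and 99.3 and 94.9 CPM in HELZ-null libraries. It rose with a log2FC of 0.18 (SE 0.037, adjusted p = 0.000131), and the adjusted p was 0.0123 without HELZ-null replicate 1. CDK5 (chr7:150750902-150754984, minus strand) is a kinase known from neurons, where p35 activates it in place of a cyclin. It had 48.1 and 49.0 CPM in WT and 63.7 and 60.6 CPM in HELZ-null libraries. Its log2FC of 0.35 (SE 0.045, adjusted p = 2.73e-08) was larger than that of CCNI or CCNY. With the median of the neighbours within 5 Mb taken off, the values were 0.08 for CDK5, 0.25 for CCNI and 0.20 for CCNY. CDK5R1, the gene of p35, had 17.0 and 17.4 CPM in WT and 15.3 and 14.4 CPM in HELZ-null libraries. It was not called (log2FC -0.22, adjusted p = 0.0184).

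**Figure D3:**
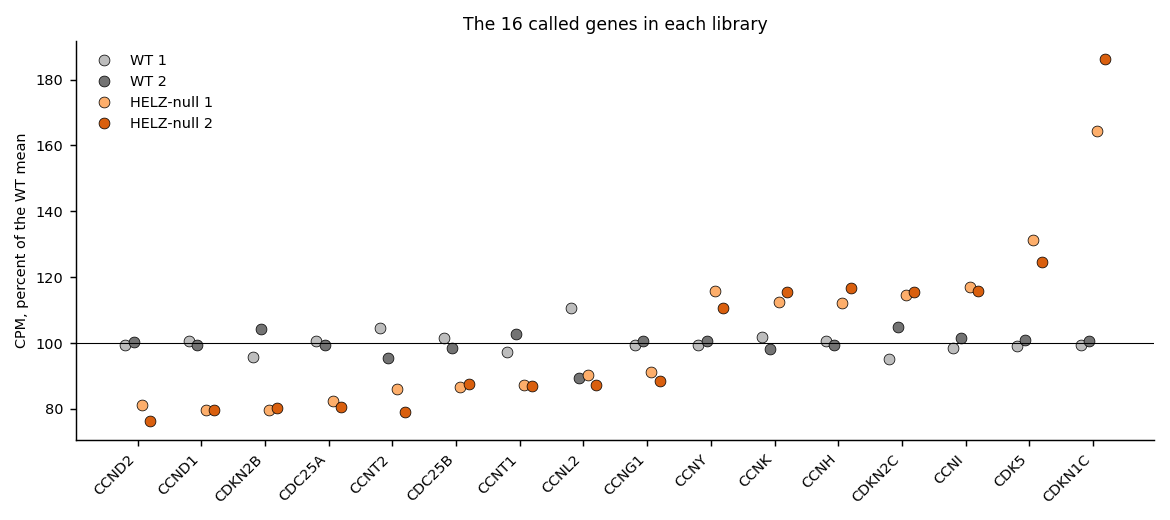
CPM of the 16 called genes in each of the 2 WT and 2 HELZ-null libraries, as percent of the WT mean of each gene (linear axis that does not start at 0), ordered by log2FC. For 15 of the 16 genes the orange HELZ-null points lie apart from the grey WT points, while for CCNL2 only WT replicate 1 lies above the others.

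Location was examined because genes close to each other on a chromosome moved together in places. For CDK5, 40 of the 41 tested genes within 5 Mb also had a positive log2FC, with a median of 0.28, and taking that median off leaves 0.08, and the part of the location was not tested. For the other called genes apart from CDC25A, the median of the neighbours lay between -0.05 and 0.04. The largest decreases among called genes, those of CCND1 and CCND2, stood among neighbours with medians of 0.03 and 0.0003. CCNA2 and CCNC, which were not called, lay in regions where most neighbours were lower in HELZ-null cells. The 18 neighbours of CCNA2 had a median log2FC of -0.14 and the 11 neighbours of CCNC, the cyclin of the Mediator kinases, one of -0.19. CCNC itself had a log2FC of -0.06. Whether the 2 lines differ in copy number at these places was not tested.

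**Figure D4:**
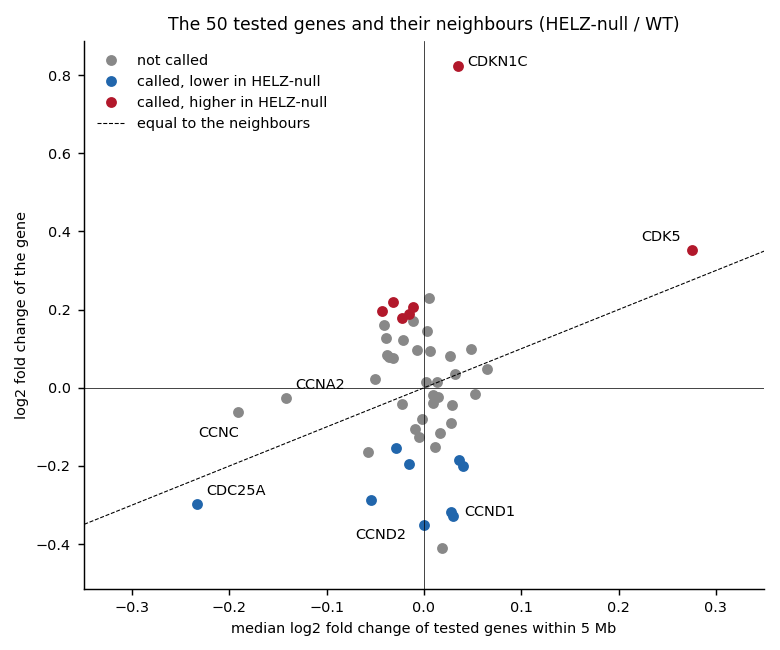
Log2 fold change (HELZ-null over WT) of each of the 50 tested genes on the vertical axis against the median log2 fold change of the other tested genes within 5 Mb on the horizontal axis. CDC25A and CDK5 lie near the dashed line of equal values, at neighbour medians of -0.23 and 0.28, while CDKN1C, CCND1 and CCND2 have neighbours near 0.

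Of the 56 genes, 21 overlap another gene of the table, 20 of these 21 were tested, and 7 were called (35%, against 29.4% of all tested genes). Use of strand in the counting is not given in the sources used here, so reads of opposite genes cannot be told apart. CDK5 overlaps SLC4A2, which was also higher in HELZ-null cells (log2FC 0.37), and CCNH overlaps RASA1, which was higher as well (log2FC 0.24). CCND1 overlaps ORAOV1 and CCNK overlaps CCDC85C, both not called (log2FC 0.09 and 0.00). The overlapping partners of CCND2, CCNT2 and CDKN2B are antisense RNAs with at most 175 counts in any library.

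The 6 genes outside the tested set were CCNA1, CCNB3, CCNI2, CCNJL, CCNYL2 and CDK15, all of low level. In a fit on the 20904 genes with at least 1 count, of which 18.2% were called, 1 of the 6 was called. This was CCNYL2 (chr10:42903616-42970797, minus strand), a close copy of CCNYL1 and CCNY, with 36 and 25 counts in WT and 2 and 13 counts in HELZ-null libraries. As CPM of the whole library this is 0.554 (95% Poisson interval 0.388 to 0.767) and 0.590 (0.382 to 0.872) against 0.0479 (0.0058 to 0.173) and 0.184 (0.0982 to 0.315), and the intervals cover counting error only. Library totals exceed the number of mapped reads that the methods state, so the mates of a pair may have been counted singly, in which case these intervals are too narrow. Its fitted log2FC was -2.15 (SE 0.54, adjusted p = 0.000534), and its reads may be shared with its copies, so the value is uncertain. CCNA1, the germ line A-type cyclin, had 54 and 29 counts in WT and 12 and 35 in HELZ-null libraries (log2FC -0.93, adjusted p = 0.0399) and was not called. CDK15 had 11 and 12 counts in WT and 19 and 35 in HELZ-null libraries (log2FC 1.09, adjusted p = 0.103). CCNB3, CCNI2 and CCNJL had between 47 and 344 counts per library and adjusted p-values of at least 0.331.

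Other genes of these pathways were listed by role. Of 13 genes for RB, its relatives and the E2F and DP factors, which the cyclin D and E kinases control, 0 were called in the main edgeR fit or by DESeq2, against 29.4% of all tested genes in edgeR. At an unadjusted p under 0.05, 3 were higher and 3 lower, against 25.1% higher and 25.8% lower among all tested genes. The 13 had a median log2FC of -0.02 and a range from -0.19 to 0.13. E2F1, the lowest in adjusted p of these 13, had 69.9 and 71.6 CPM in WT and 75.1 and 78.3 CPM in HELZ-null libraries (log2FC 0.12, adjusted p = 0.0128). Of 17 regulators of CDK activity, 2 rose and 0 fell (11.8% called, against 29.4% of all tested genes). These were CDC14A, a phosphatase of CDK substrates (log2FC 0.40, SE 0.085, adjusted p = 0.000187), and CDK2AP2, a CDK2-associated protein (log2FC 0.24, SE 0.050, adjusted p = 0.000132).

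Of 25 mitotic genes, 4 rose and 3 fell, with a median log2FC of 0.02, and the 28% called is near the 29.4% of all tested genes. KIF23 and PRC1, which act together at the central spindle in cytokinesis, fell with log2FC values of -0.47 (adjusted p = 1.05e-13) and -0.31 (adjusted p = 4.1e-11), and their neighbours had medians of -0.27 and -0.34, whose part was not tested. KIF20A, a kinesin of the same structure, rose (log2FC 0.24, adjusted p = 4.54e-07) with neighbours at 0.05. Of 22 tested partners of CDK7, CDK8 and CDK9, 5 rose and 4 fell (40.9% called, against 29.4% of all tested genes), with a median of 0.03. MED12, which activates the Mediator kinases, had 73.5 and 70.1 CPM in WT and 92.4 and 88.6 CPM in HELZ-null libraries (log2FC 0.33, adjusted p = 4.76e-09). GTF2H3, a subunit of TFIIH, fell (log2FC -0.28, adjusted p = 1.76e-08), as did AFF1, a scaffold of the super elongation complex that holds P-TEFb (log2FC -0.25, adjusted p = 5.85e-06). Of TFIIH, GTF2H5 and MNAT1 also fell (log2FC -0.17 and -0.17, adjusted p = 0.00119 and 0.00403), while GTF2H1 rose (log2FC 0.19, adjusted p = 0.000431). Of the super elongation complex, ELL2 and MLLT1 rose (log2FC 0.24 and 0.12, adjusted p = 7.34e-05 and 0.00435).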

How the data were processed

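RNA was measured by RNA-Seq (TruSeq libraries, paired-end reads) in 2 WT and 2 HELZ-null libraries. The count values were made by the authors, who removed ribosomal RNA reads with Bowtie2, mapped to hg19 with TopHat2 and counted per gene with QuasR, and they were deposited without normalization. Versions, gene annotation, use of strand and the counting of mates are not given in the sources used here, and library totals exceed the mapped reads that the methods state. The deposited comparison table also holds the authors' log2 fold changes, p-values and FDR values, of which only the gene names were used. Those 10978 genes were selected by the authors at an FPKM above 2.

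Tests were run on the counts with edgeR 4.0.16 under R 4.3.3 (TMM, glmQLFit and glmQLFTest, genotype as the only term, Benjamini-Hochberg over all 10978 genes, called at an adjusted p under 0.005). Standard errors come from the log2FC and the F statistic. CPM use TMM-scaled totals of the tested genes, and FPKM use the deposited gene width and the library total. A floor of 3 counts corresponds to 0.0426 to 0.0719 CPM, and the biological coefficient of variation was 2.6%. Replicates of a group differed by more than sampling noise of independent counts (chi-square per degree of freedom 4.16 in WT and 3.01 in HELZ-null), and the study calls them biological. Counting the mates of a pair singly would also raise these values, so the size of the excess is uncertain. The fit was tested on simulated counts with planted log2FC values of -1, -0.5, 0.5 and 1, with the same coefficient of variation for every gene. It recovered 50, 49, 50 and 50 of 50 genes each. Smaller changes, such as those of most called genes here, were not simulated.

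Positions came from GENCODE on GRCh37 (1-based) and all 56 genes matched. Upstream sequences came from RefSeq. The genes, classes and lists were chosen with earlier results of these data known. Named genes were HELZ, all called members, the most abundant member of a class without calls, the 3 most abundant members, and up to 3 called genes per list. Relatives of these, E2F1, CDK5R1, GTF2H1, GTF2H5, MNAT1, ELL2 and MLLT1 were named after their values were seen. A gene of the inhibitor family is not reported here. The replicate numbers did not pair the libraries (correlation of deviations 0.033 over 10913 genes), and no batches are labelled. Alternatives were other scalings, DESeq2 1.42.0, other gene filters, thresholds, thinning, single libraries left out, a replicate block and, chosen after the data were seen, halved counts, a GC correction and subtraction of the neighbours' median.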

Additional observations from a re-analysis of the deposited data

How the results depend on the processing

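Of the 16 called genes, 10 kept the call under the 13 alternatives that have a test and could end it, apart from a test against a fold change of 1.2. The exceptions were CCNG1, CCNH, CCNL2, CCNY, CDKN1C and CDKN2C, and no called gene changed direction under these 13. Subtracting the neighbours' median gives no test, and it took CDC25A from -0.30 to -0.06 and CDK5 from 0.35 to 0.08, both among those 10. A test against a fold change of 1.2 called 1 gene up and 0 down, 1 and 0 in the cell cycle class and 0 and 0 in the transcription class. The 1 gene is CDKN1C, which passed the FPKM selection only through the group where it is higher. An adjusted p under 0.05 called 11 up and 15 down, with 10 down in the cell cycle class and 4 up in the transcription class. CDK3, which passed the FPKM selection through the WT group alone, is among the 10. DESeq2 and thinned libraries each called 1 transcription gene up, and library size scaling and the GC correction each called 3, against 2 in the main fit. Library size scaling moved the median log2FC to 0.0327 over all members and to 0.0013 in the cell cycle class, thinning moved the cell cycle median to -0.0370, the GC correction moved the transcription median to 0.0053, and subtracting the neighbours' median moved the cell cycle median to -0.0419. The causes were not tested.

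With single libraries left out in turn, between 5 and 7 genes were called up and between 7 and 10 down, with medians from -0.0169 to 0.0123. In the cell cycle class 1 to 2 were up and 5 to 7 down, with medians from -0.0361 to -0.0218. In the transcription class 1 to 2 were up and 2 to 4 down, with medians from -0.0712 to 0.0231, and 0.0231 was the value without WT replicate 1. With the replicate block, 7 genes were called up and 9 down, and the block changed no call. With libraries thinned to the lowest total, the calls of CCNH and CCNL2 were lost.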
